A study of Mus musculus with 474 samples.

Results

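The 10 genes described here encode enzymes that break down fatty acids inside mitochondria: Acadl, Acadm, Acadvl, Hadha, Hadhb, Acaa2, Eci1, Etfdh, Etfa and Cpt2. They were picked by gene symbol from a table of 20612 genes, and all 10 were among the 18823 genes that passed the filter on low counts. RNA had been sequenced from the skeletal muscle of Diversity Outbred mice, 1 library per animal. The methods of the study give the muscle as gastrocnemius, a mixed calf muscle. Diversity Outbred mice come from inbred founder strains crossed at random for many generations, and no animal is a genetic copy of another. All animals were on the same high-fat, high-sugar diet, and no animal on another diet was sequenced here. The titles gave the sex and a number, read here as the outbreeding generation. The methods of the study name only some of these numbers as generations, so for the others the reading is an assumption. Females numbered 48, 45, 49, 46 and 47 in generations 17, 18, 19, 21 and 23, and males 46, 48, 50, 47 and 48. Age was not in the labels. Animals differed in genotype within every group, so the spread within a group holds genetic as well as technical differences.

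Long-chain fatty acids enter mitochondria as carnitine esters. CPT1 makes these esters at the outer membrane, the carrier encoded by Slc25a20 brings them across the inner membrane, and CPT2 returns the fatty acid to coenzyme A. Each turn of beta-oxidation then shortens the chain in 4 kinds of reaction. The acyl-CoA dehydrogenases encoded by Acadvl, Acadl and Acadm act on very-long-, long- and medium-chain substrates in the first of them. Hadha and Hadhb encode the alpha and beta subunits of the trifunctional protein, which carries out the later reactions on long chains, and Acaa2 encodes a thiolase for shorter ones. Eci1 encodes an isomerase needed for unsaturated fatty acids. Electrons from the dehydrogenases pass to the electron transfer flavoprotein, whose alpha subunit is encoded by Etfa, and from there through the product of Etfdh into the respiratory chain. In muscle these genes are known targets of PPAR and estrogen-related receptors.

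Total counts ran from 35.9 to 165.7 M per library, with a median of 79.3 M, so even the lowest library gave each of the 10 genes at least 1730 reads. Skeletal muscle markers such as Acta1, Ckm and Ttn were present in every library, at a summed 53725 to 109184 CPM (counts scaled to a common library size by TMM). In 5 libraries (DO048, DO153, DO193, DO308 and DO347) the RNA of sex-linked genes went against the sex in the title by a strict rule. The rule for a female label was Xist under 10 CPM or any Ddx3y count, so a small amount of Ddx3y was enough. For a male label it was Xist over 5 CPM or Ddx3y under 10 CPM. These 5 libraries were kept under their labels. Without them the same number of the 10 genes, 9, differed between the sexes and no log2 difference moved by more than 0.0016. For the comparisons below, the library numbers in the titles were divided into 5 stretches of at most 96, called library blocks. The division is not one of the labels, which name no batch, and more than 1 number in a row is missing only after the first stretch.

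Together the 10 transcripts made up 0.223% of all counts, from 0.155% in the lowest animal to 0.369% in the highest. In CPM, Hadha averaged 408.96 ± 55.1 (SD over all animals), Hadhb 381.2 ± 50.2, Acadvl 312.3 ± 41.4, Acadm 300.997 ± 41.5 and Acadl 283.4 ± 47.2. Etfa at 156 ± 18.9, Etfdh at 143 ± 19.2 and Acaa2 at 133 ± 21.2 formed a middle group whose ranges overlapped. Eci1 averaged 58.3 ± 8.86 and Cpt2 54.2 ± 9.47. Levels of different genes can be compared only per length. Per kb of the longest principal transcript, mean CPM was highest for Hadhb (186), nearly the same for Acadl (148), Acadm (147.04) and Acadvl (144), lower for Etfa (112), Hadha (102), Acaa2 (87.7), Etfdh (60.2) and Eci1 (51.3), and lowest for Cpt2 (22.9), against a median of 1.63 over all genes tested. The order depends on the length used. With all annotated exons joined, Acadl led at 141 and Hadhb stood at 57.8.

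The spread between animals was close to that of a typical gene. From the lowest to the highest animal the level differed 2.23-fold for Hadhb and 3.26-fold for Cpt2, with the other 8 genes between. After sex and generation were removed, the SD of the deposited variance-stabilised values (VST, close to a log2 scale) was 0.17 for Etfa and 0.22 for Acadl, with the rest between, against a median of 0.20 over all genes. The plot of CPM by sex shows the spread of each gene.

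**Figure D1:**
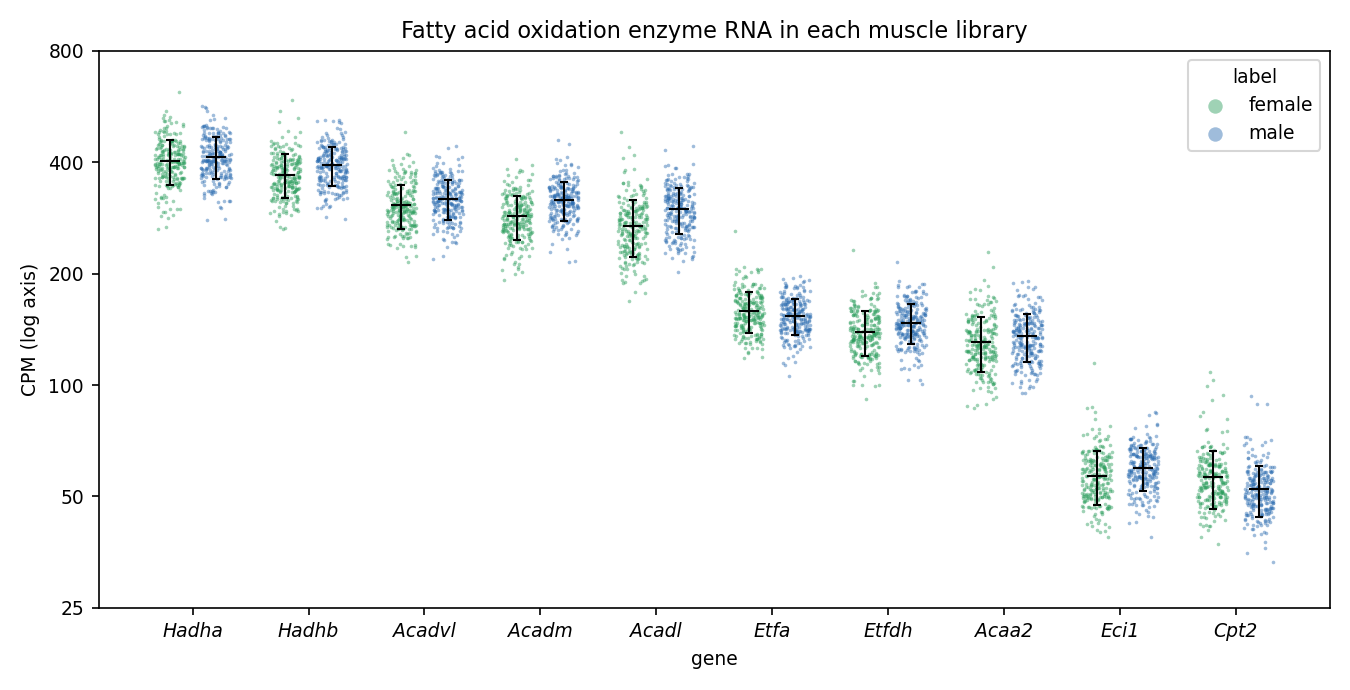
CPM of the 10 genes on a log axis, 1 point per library (all libraries, by labelled sex), with the mean and SD in black. For every gene the 2 sexes share most of their range, with means of 268.5 and 298.1 CPM in females and males for Acadl and of 56.2 and 52.2 CPM for Cpt2.

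The promoters of Acadm, Acadvl and Etfa are printed here because they hold a receptor motif, and that of Hadhb because its window overlaps that of Hadha. The windows cover 250 bases before to 50 bases after the RefSeq start (GRCm38.p6), 5' to 3' on the strand of the gene. They are Acadm at chr3:153944594-153944893 (minus strand), Acadvl at chr11:70015379-70015678 (minus strand), Etfa at chr9:55512194-55512493 (minus strand) and Hadhb at chr5:30155003-30155302 (plus strand). Capitals mark AGGTCA on either strand in Acadm and Acadvl, and in Etfa a pair of AGGTCA copies with 1 base between them and 2 mismatches. In Hadhb they mark the 85 bases between the annotated starts of Hadha and Hadhb, which are transcribed away from each other.
Acadm: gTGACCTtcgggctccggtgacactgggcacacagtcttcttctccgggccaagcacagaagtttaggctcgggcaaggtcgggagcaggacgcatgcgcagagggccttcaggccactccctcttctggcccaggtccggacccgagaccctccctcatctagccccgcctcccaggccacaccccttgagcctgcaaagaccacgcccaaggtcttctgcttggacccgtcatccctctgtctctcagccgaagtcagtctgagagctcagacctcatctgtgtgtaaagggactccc
Acadvl: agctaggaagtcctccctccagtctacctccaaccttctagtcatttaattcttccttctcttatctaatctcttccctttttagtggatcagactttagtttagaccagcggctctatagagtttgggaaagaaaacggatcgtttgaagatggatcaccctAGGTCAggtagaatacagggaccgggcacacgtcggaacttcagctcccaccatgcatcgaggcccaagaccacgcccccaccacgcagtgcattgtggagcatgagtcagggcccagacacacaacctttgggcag
Etfa: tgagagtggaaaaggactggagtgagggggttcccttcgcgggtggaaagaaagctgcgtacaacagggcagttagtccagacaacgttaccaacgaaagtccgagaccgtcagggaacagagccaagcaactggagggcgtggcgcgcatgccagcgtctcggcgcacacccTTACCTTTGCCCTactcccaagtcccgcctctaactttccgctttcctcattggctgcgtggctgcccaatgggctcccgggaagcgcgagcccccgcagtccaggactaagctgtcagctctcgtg
Hadhb: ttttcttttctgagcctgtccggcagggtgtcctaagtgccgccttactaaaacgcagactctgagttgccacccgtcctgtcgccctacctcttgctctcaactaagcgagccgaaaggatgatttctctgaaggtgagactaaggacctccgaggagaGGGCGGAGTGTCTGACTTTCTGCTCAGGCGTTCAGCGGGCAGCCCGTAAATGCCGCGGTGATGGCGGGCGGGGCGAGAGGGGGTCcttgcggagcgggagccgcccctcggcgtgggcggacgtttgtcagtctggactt

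Promoter sequences were found for 9 of the 10 genes, all but Acaa2. AGGTCA, the half-site of many nuclear receptors, was present in 2 of the 9, at the upstream end of the window in Acadm and 87 bases before the start in Acadvl, while 16.2% of 32544 mouse promoters of the same length held it. The direct repeat with 1 spacer base, the arrangement bound by PPAR with RXR, was found with up to 2 mismatches in Etfa alone, 77 bases before the start, and in 3.87% of all promoters. TCAAGGTCA, the longer site of estrogen-related receptors, contains the half-site and was found in none of the 9, and in 0.412% of all promoters. These are matches of letters in short windows, and sites outside them were not searched. Hadha and Hadhb start 86 bases apart in GENCODE and farther apart in RefSeq.

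The first comparison was between the sexes. Of the 10 genes, 7 were higher in males and 2 were lower (edgeR quasi-likelihood test with generation as a covariate, Benjamini-Hochberg adjusted p under 0.05 over all genes tested). Of all 18823 genes 55.0% differed between the sexes, 24.4% higher and 30.6% lower in males, so the total of 9 says little about these genes by itself. All of the differences were small. The median log2 difference (male minus female) was 0.07 over the 10 genes and -0.01 over all genes, and when libraries were scaled by total count alone 4 genes were higher and 2 lower, against 17.7% and 39.7% of all genes, whose median was then -0.05.

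The largest differences were in acyl-CoA dehydrogenases. Acadl ran from 168.3 to 481.7 CPM with a median of 265.4 in females, and from 201.7 to 443.1 CPM with a median of 298.2 in males. The ranges overlapped almost completely, although 77.8% of males lay above the median female. Its log2 difference was 0.15 ± 0.02 (SE; adjusted p = 1.9e-11 by edgeR), or 11.01% higher in males. Acadm ran from 191.9 to 407.3 CPM with a median of 284.1 in females and from 215.4 to 459.7 CPM with a median of 315.1 in males. Here 79.1% of males were above the median female, and the log2 difference was 0.15 ± 0.02 (adjusted p = 1.7e-15). Sex accounted for 10.1% of the variance of Acadl VST and 13.2% of that of Acadm. Acadvl, which acts on the longest chains, had a median of 299.9 CPM in females (215.5 to 482.9) and 316.9 CPM in males (218.9 to 441.2). It differed less, by 0.06 ± 0.02 on the log2 scale (adjusted p = 0.0012), and it was not called when scaled by total count alone (0.03, adjusted p = 0.16).

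The subunits of the trifunctional protein gave unequal results. Hadhb had a median of 364.9 CPM in females (264.1 to 588.1) and 391.3 CPM in males (281.4 to 521.01), a log2 difference of 0.09 ± 0.02 (adjusted p = 1.8e-06). Hadha had a median of 401.2 CPM in females (264.1 to 618.6) and 406.99 CPM in males (278.8 to 567.8), a log2 difference of 0.04 ± 0.02 (95% interval 0.0014 to 0.07) with an unadjusted p of 0.042 that did not pass after adjustment (adjusted p = 0.073, edgeR). The difference between the subunits was not itself tested. Without DO147, the female with the highest level, the log2 difference of Hadha was 0.04 and passed (adjusted p = 0.042, edgeR).

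Among the remaining genes that were higher in males, Etfdh had a log2 difference of 0.08 ± 0.02 (adjusted p = 8.4e-06), Eci1 of 0.07 ± 0.02 (adjusted p = 0.00092) and Acaa2 of 0.05 ± 0.02 (adjusted p = 0.023). Etfdh had a median of 136.7 CPM in females (91.8 to 232.2) and 145.8 CPM in males (100.8 to 214.5). Median Eci1 was 55.7 CPM in females (38.8 to 114.5) and 59.2 CPM in males (38.8 to 84.8), and median Acaa2 was 127.8 CPM (86.7 to 229.1) and 134.4 CPM (95.2 to 190.8). In all 3 the sexes overlapped over most of the range. Scaling by total count alone ended the calls of Eci1 (0.04, adjusted p = 0.11) and Acaa2 (0.02, adjusted p = 0.46).

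Cpt2 and Etfa went the other way. Cpt2 had a median of 54.8 CPM in females (37.1 to 108) and 51.3 CPM in males (33.2 to 93.4). Only 32.2% of males lay above the median female, and the log2 difference was -0.11 ± 0.02 (adjusted p = 3.1e-06). Etfa had a median of 155 CPM in females (118.3 to 261.1) and 152 CPM in males (106 to 197), with a log2 difference of -0.04 ± 0.02 (adjusted p = 0.010). The Etfa call was lost when fibre markers were added as covariates. Within the single generations and blocks Acadl, Acadm, Acadvl, Hadhb and Etfdh were higher in males in 5 of 5 generations and 5 of 5 blocks, and Cpt2 and Etfa were lower in all of them. Acaa2 and Eci1 were higher in 5 of 5 generations and 4 of 5 blocks, and Hadha in 4 of 5 of each. Acadm alone was called in all 5 single generations. Taken alone, generations 17, 18, 19, 21 and 23 gave 2, 1, 2, 4 and 3 calls among the 10 enzymes, against 22.7%, 23.4%, 20.6%, 24.8% and 25.3% of all genes. Blocks 1 to 5 gave 1, 2, 5, 4 and 6, against 19.7%, 22.7%, 24.4%, 28.6% and 23.2%.

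Other mitochondrial beta-oxidation genes also had calls in both directions. Of 16 other genes, 8 were higher in males and 5 lower (6 and 5 with total count alone), with a median log2 difference of 0.03. Cpt1b, the muscle CPT1 and the step before Cpt2, was higher in males by 0.16 ± 0.02 on the log2 scale (adjusted p = 2.7e-20), opposite to Cpt2, and Slc25a20, the carrier between them, by 0.07 ± 0.02 (adjusted p = 0.00017). Hadh, the short-chain hydroxyacyl-CoA dehydrogenase, was higher by 0.14 ± 0.02 (adjusted p = 3.9e-17). The 2 largest differences of the list were both lower in males: Echs1, the short-chain enoyl-CoA hydratase, at -0.20 ± 0.02 (adjusted p = 1.4e-25) and Acad11 at -0.16 ± 0.03 (adjusted p = 3.9e-06). Acads, the short-chain dehydrogenase, stood at -0.08 ± 0.02 (adjusted p = 0.00035). Etfb, the partner subunit of Etfa, had a log2 difference of -0.0053 ± 0.02 and did not pass (adjusted p = 0.81).

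Peroxisomal beta-oxidation, which shortens very long and branched chains in another organelle, had the opposite balance. Of its 14 genes 10 were lower in males and 1 was higher, with the same counts under scaling by total count alone, and the median log2 difference was -0.14. The largest were Acaa1b, a peroxisomal thiolase, at -0.39 ± 0.14 (adjusted p = 0.012) and Crot, carnitine octanoyltransferase, which was the 1 higher gene at 0.30 ± 0.02 (adjusted p = 4.3e-32). Whether the peroxisomal and mitochondrial lists differ was not tested. Tricarboxylic acid cycle genes were 9 higher and 2 lower of 18, but 5 and 4 with total count alone. The plot of sex differences sets the 3 oxidation lists side by side.

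**Figure D2:**
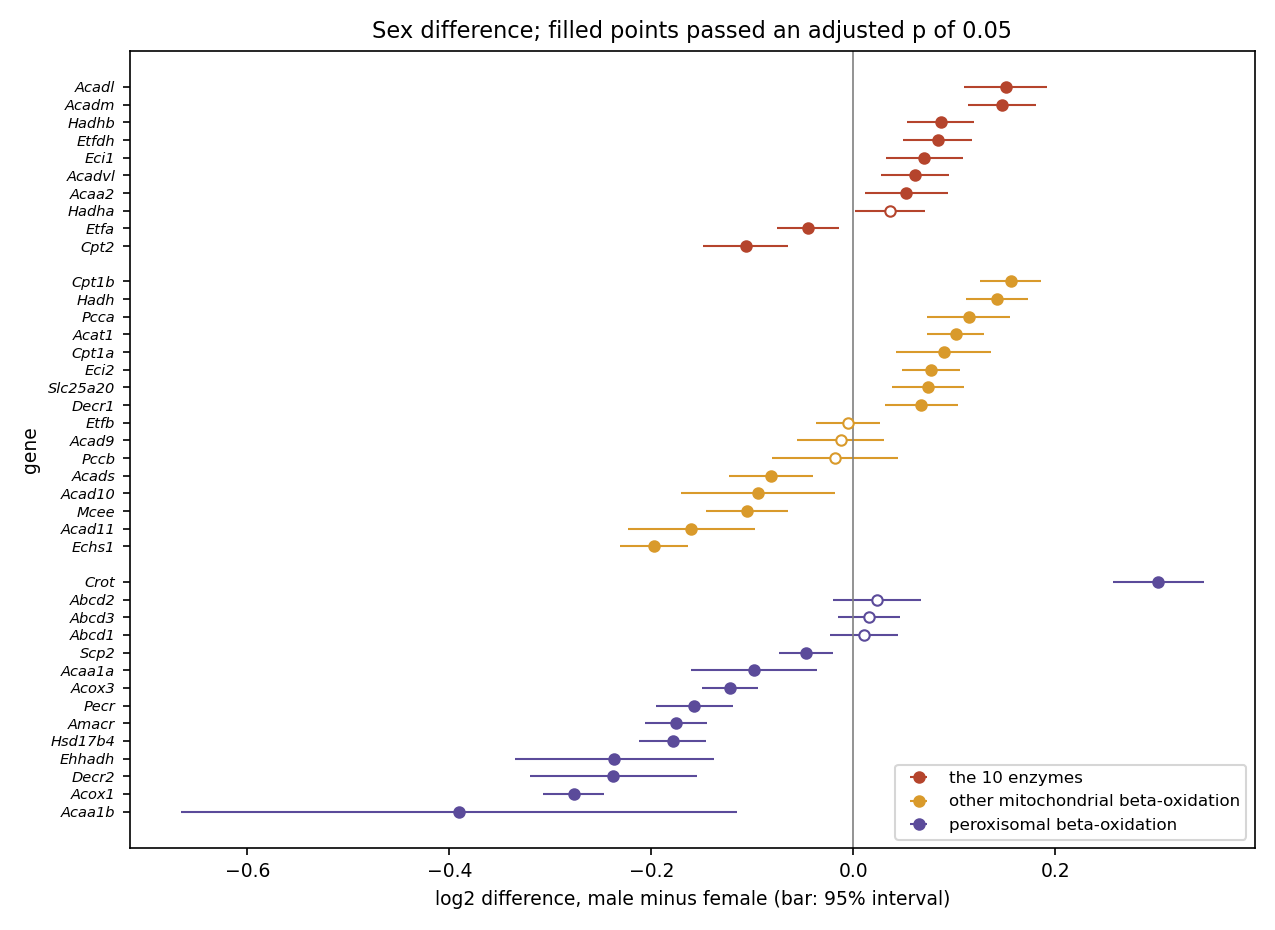
Log2 difference (male minus female) with its 95% interval for the 10 enzymes, 16 other mitochondrial beta-oxidation genes and 14 peroxisomal genes, from the fit on all libraries. Filled points passed the adjusted p threshold of 0.05. Among the 10 enzymes 7 filled points lie right of 0 and 2 left, and among the peroxisomal genes 1 lies right and 10 left (with total count alone the 10 enzymes gave 4 and 2).

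Markers of fibre type and of other cells moved with sex, and their part in the differences above was examined only by covariates. All 9 slow-fibre markers (Myh7, Tnnt1 and others) were lower in males, at a summed 2819 ± 875 CPM against 3947 ± 1185 in females, and 8 of 9 white adipocyte markers were lower as well, all but Lep. Their sum of 1656 CPM was mostly Car3, at a mean of 1344.9 CPM, a gene that muscle also expresses strongly. Adipoq, which defines adipocytes, averaged 19.03 CPM and was lower in males (log2 difference -0.54 ± 0.09, adjusted p = 6.9e-09). All 6 endothelial markers were higher in males, at a summed median of 231.7 against 216.9 CPM (4 with total count alone). Of 5 erythroid markers 3 were higher and 0 lower (1 and 0 with total count alone), at a summed median of 156.3 against 128.1 CPM. The 6 brown adipocyte markers tested were divided, with 3 higher and 3 lower in males (2 and 3 with total count alone) and a sum of 318.5 ± 51.9 against 304.6 ± 61.3 CPM. Ucp1, the uncoupling protein that defines brown fat, was lower by the most (log2 difference -3.79 ± 0.38, adjusted p = 8.9e-20), and Cidea and Dio2 were lower as well, while Cox7a1, Cox8b and Ppargc1a, which muscle also expresses, were higher. In edgeR the sex difference was called as varying with generation for Ucp1 (interaction adjusted p = 4.5e-05, edgeR). The erythroid genes Alas2 (1.1e-05), Hbb-bs (0.0014) and Hbb-bt (0.0046) were called in the same edgeR test. By limma no gene at all passed for interaction. The values given here for these genes are pooled over generations. Fast-fibre markers were 6 higher and 3 lower of 11 (4 and 4 with total count alone). Fewer cells of a type and less RNA per cell cannot be told apart in whole tissue. A slow-fibre score, the mean standardised log2 CPM of the 9 markers, was positively related to all 10 enzymes at equal sex and generation, and 9 of them passed, against 9.84% of all genes. The slopes were 0.03 to 0.07 log2 units per unit of score, steepest for Eci1 (0.07 ± 0.01, adjusted p = 2.8e-06) and least for Cpt2 (0.03 ± 0.01, adjusted p = 0.089).

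With that score as a covariate 9 of the 10 enzymes again differed between the sexes, 8 higher and 1 lower in males, against 52.0% of all genes. Acadm and Acadl then differed by 0.20 ± 0.02 each on the log2 scale. Hadha passed at 0.08 ± 0.02 (adjusted p = 0.00046). Etfa no longer did, and its difference of 0.0051 ± 0.02 had the opposite sign (adjusted p = 0.83). Cpt2 stayed lower at -0.08 ± 0.02 (adjusted p = 0.0036).

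No difference between generations was found. None of the 10 passed in the edgeR test (adjusted p 0.52 at the lowest), none had an unadjusted p under 0.05, and none was called by DESeq2 or limma, where 7.56% of all genes were called by edgeR. The distance between the highest and the lowest generation was 0.03 (Etfdh) to 0.07 (Hadha) on the log2 scale. Mean Acadl, for example, was 282.5, 283.98, 277.5, 286.4 and 287.1 CPM in generations 17, 18, 19, 21 and 23, with SDs of 42.0 to 53.4.

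In the same libraries, 6 of 8 PPAR-responsive genes outside the beta-oxidation spiral differed between generations, and 1423 of all genes did. Pdk4, the kinase that restrains pyruvate dehydrogenase, fell from 1829 ± 679.3 CPM in generation 17 to 1469 ± 694.8 in generation 18 and 1212 ± 539.4 in generation 23 (adjusted p = 1.4e-10 by edgeR). Ucp3, a mitochondrial carrier that is raised by fatty acids, fell from 270.9 ± 107 to 217.2 ± 75.0 and 193 ± 76.8 CPM (adjusted p = 3.0e-08). The coactivator gene Ppargc1a differed as well (adjusted p = 6.9e-08, edgeR), without a steady fall. It averaged 87.2 ± 39.4 CPM in generation 17, 91.1 ± 48.9 in 18, 61.3 ± 31.0 in 19, 75.3 ± 43.6 in 21 and 67.4 ± 34.7 in 23. Between the sexes Pdk4 did not pass (log2 difference -0.05 ± 0.06, adjusted p = 0.51) and Ucp3 was higher in males by 0.18 ± 0.05 (adjusted p = 0.0010).

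The sex difference of the 10 enzymes was not found to vary with generation. None passed the interaction test in edgeR, where 0.531% of all genes did, and none had an unadjusted p under 0.05 (0.24 at the lowest). By limma none of the 10 passed, and no gene at all did. Over all genes 1123 had an unadjusted p under 0.05 by edgeR and 870 by limma.

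Library blocks did separate them. With sex and generation in the fit, 9 of the 10 differed between blocks, all but Cpt2 (adjusted p = 0.15), against 47.4% of all genes, and with total count alone 5 did, Cpt2 among them, against 47.6%. Eci1 stood out, with a log2 range of 0.27 between blocks (adjusted p = 5.7e-19) and 11.03% of its VST variance. It averaged 51.4 ± 6.27 CPM in block 1 and 58.7 to 62.1 CPM in the other 4. Ranges of the other 9 genes were 0.08 to 0.16, below the median of 0.18 over all genes. Both sexes and all generations were present in each block, and adding the block as a covariate left 7 genes higher and 2 lower in males.

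**Figure D3:**
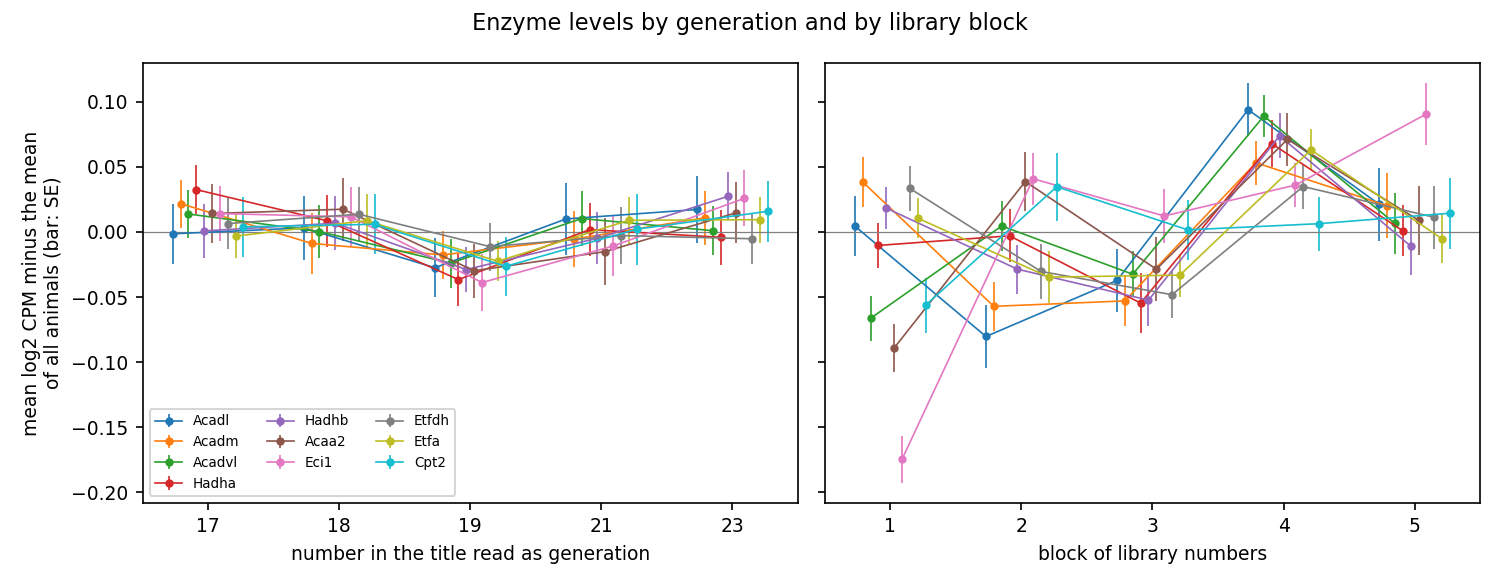
Mean log2 CPM of each of the 10 genes minus its mean over all animals, with SE, by the number read as generation (left) and by library block (right). Generation means lie close together for every gene, while Eci1 in block 1 lies lowest of all.

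The second question was how the genes vary together from animal to animal. Pearson correlations were computed over all animals on VST after sex and generation were removed, and are descriptions without a test. The points share a library for both genes of a pair, and so its depth and composition. Every one of the 45 pairs was positive, with a median r of 0.674. Over the 177 M pairs of tested genes the median r was -0.00095 and the median absolute r 0.0601, and 0.0530% of pairs reached the median of the 10 enzymes. Of the 45 pairs, 42 had r of at least 0.5 and 16 of at least 0.7. Spearman's rho gave a median of 0.648, and leaving out the 2 animals farthest from the median moved no pair's r by more than 0.039.

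The tightest pair was Acadvl and Acaa2 (r = 0.816, rho = 0.811), which act at the first and the last step of the spiral. Acadl and Hadhb followed at 0.803. Hadha and Hadhb, subunits of 1 protein with neighbouring starts, came next at 0.747. The loosest was Eci1 and Etfa (r = 0.438, rho = 0.392). Each gene was also compared with the mean of the other 9. Acadvl (r = 0.873) and Hadhb (0.861) were closest to it, and Eci1 (0.660), Cpt2 (0.715) and Acadm (0.729) least close.

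A first principal component held 68.7% of the variance of the 10 genes and the second 8.23%. The second set Eci1, Acaa2 and Cpt2 on one side and Etfa, Etfdh and Acadm on the other. Of the 45 pairs, Acadl and Acadvl varied most between blocks, with r of 0.342 in the lowest and 0.876 in the highest single block. The median r was 0.720 within females and 0.623 within males, a difference that was not tested, and 0.588 to 0.691 within single generations. In single blocks it lay between 0.538 (block 1) and 0.753 (block 5), and all 45 pairs were positive in each. The mean of the 10 standardised genes had little relation to depth (r = -0.060 with log2 total count, -0.065 with the TMM factor) and a weak one to the share of reads from mitochondrially encoded genes (0.167).

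The correlated genes lay on 8 chromosomes. Acadl is at chr1:66830839-66863277, Etfdh at chr3:79603788-79629500, Acadm at chr3:153922357-153944632, Cpt2 at chr4:107903981-107923610, Hadha at chr5:30118304-30155162, Hadhb at chr5:30155248-30184593, Etfa at chr9:55454508-55512243, Acadvl at chr11:70010183-70015411, Eci1 at chr17:24426641-24439348 and Acaa2 at chr18:74779197-74806208 (GRCm38, GENCODE M21). Acadvl shares 2119 bases with Dvl2 on the other strand, which averaged 6.35 CPM, and Etfdh overlaps 4930579G24Rik at 1.00 CPM. Reads of such overlaps cannot be assigned without strand, and whether the counting used it is not given in the sources used here. Acadl holds a processed pseudogene, Gm15793, on its own strand (0.133 CPM). Away from Hadha and Hadhb, genes starting within 1 Mb of a member had a median absolute r with it of 0.044 to 0.144.

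Outside the 10, the genes closest to their mean mostly encode mitochondrial proteins as well. Ckmt2, the mitochondrial creatine kinase of muscle, came first (r = 0.742), followed by Mdh1, the cytosolic malate dehydrogenase (0.736), Ech1 (0.727), Hadh (0.727), Dlst (0.718), Decr1 (0.714), Slc25a20 (0.713), Uqcrc2 (0.698), Slc25a34 (0.687) and Eci2 (0.684). Of these, Hadh, Decr1, Slc25a20 and Eci2, were on the list of other beta-oxidation genes. Of all genes, 2.13% had r of at least 0.3. Acadvl was closer to Ckmt2 (0.803) than to any of the other 9 except Acaa2. At the other end stood Camk2a (-0.490), Pvalb (-0.465), Gpd2 (-0.435), Stim2 (-0.409) and Tpm1 (-0.391). Pvalb, parvalbumin, is a calcium buffer of fast glycolytic fibres, and Gpd2 is the mitochondrial glycerol-3-phosphate dehydrogenase.

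Means of whole lists followed in steps. The mean of the 16 other mitochondrial beta-oxidation genes had r = 0.857 with the mean of the 10 (0.789 to 0.899 in single blocks), fatty acid uptake and activation genes 0.737, tricarboxylic acid cycle genes 0.681 and peroxisomal genes 0.517. Single genes followed less closely than these means. In the same order, the median r of a listed gene with a member was 0.426, 0.338, 0.398 and 0.133. Among the genes within each list it was 0.133, 0.163, 0.446 and 0.039. The heart and muscle form Cpt1b was close to the mean of the 10 (0.682), while Cpt1a, the liver form, was at 0.028. Marker lists of other cells were compared in the same way. The mean of the brown adipocyte markers had r = 0.359 with the mean of the 10 (0.154 to 0.455 in single blocks). Among themselves these markers had a median r of -0.054. The defining marker Ucp1 stood at 0.097, Cidea at 0.228 and Dio2 at 0.163. Cox7a1, Cox8b and Ppargc1a, which muscle also expresses, stood at 0.337, 0.245 and 0.023. Endothelial markers had an r of 0.268, erythroid markers 0.212 and white adipocyte markers -0.053, and the part of these cells in the correlations was not tested.

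Fibre markers did not follow as one group. The slow myosin gene Myh7 had r = 0.188 with the mean of the 10 enzymes, and the slow-fibre score 0.248. Among the fast myosins, Myh2 of type IIa fibres stood at 0.552 and Myh1 of type IIx fibres at 0.487, whereas Myh4 of type IIb fibres, the most abundant at 69383 CPM, stood at -0.341. Mb, the myoglobin gene, was at 0.604 and Actn3 at -0.386. Removing the slow-fibre score left the median r of the 45 pairs at 0.658. Removing Myh7, Myh2, Myh1 and Myh4 together, an alternative chosen after seeing the data, left 0.559, with all 45 pairs positive.

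Of 12 transcriptional regulators, 8 had a positive r with the mean of the 10 enzymes, and the median was 0.159. The estrogen-related receptor genes Esrrb (r = 0.542), Esrrg (0.447) and Esrra (0.311) and the receptor gene Ppara (0.468) were the 4 highest. Nrip1, a corepressor of nuclear receptors, stood at -0.245, the receptor genes Rxrg and Rxra at -0.200 and -0.145, and Nrf1 at -0.120. Ppard was near 0.134. Ppargc1a, the coactivator known for raising mitochondrial genes, was at 0.023 (0.112 in females, -0.085 in males), with rho = 0.0011, although its own level ran from 19.9 to 268.3 CPM. Pdk4 was at 0.286 and Ucp3 at 0.068. By sex Ppara was lower in males (log2 difference -0.13 ± 0.04, adjusted p = 0.0010) and so was Ppard (-0.06 ± 0.02, adjusted p = 0.0059), and Esrra was higher (0.15 ± 0.02, adjusted p = 3.4e-13). With the slow-fibre score as a covariate the Ppara difference was -0.05 and did not pass (adjusted p = 0.32). Of the 12 regulators 6 were higher and 5 lower in males (3 and 5 with total count alone, 6 and 2 with the slow-fibre score). The largest differences were those of Ppargc1b (-0.27 ± 0.03, adjusted p = 9.8e-14) and Ppargc1a (0.23 ± 0.06, adjusted p = 0.00065).

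**Figure D4:**
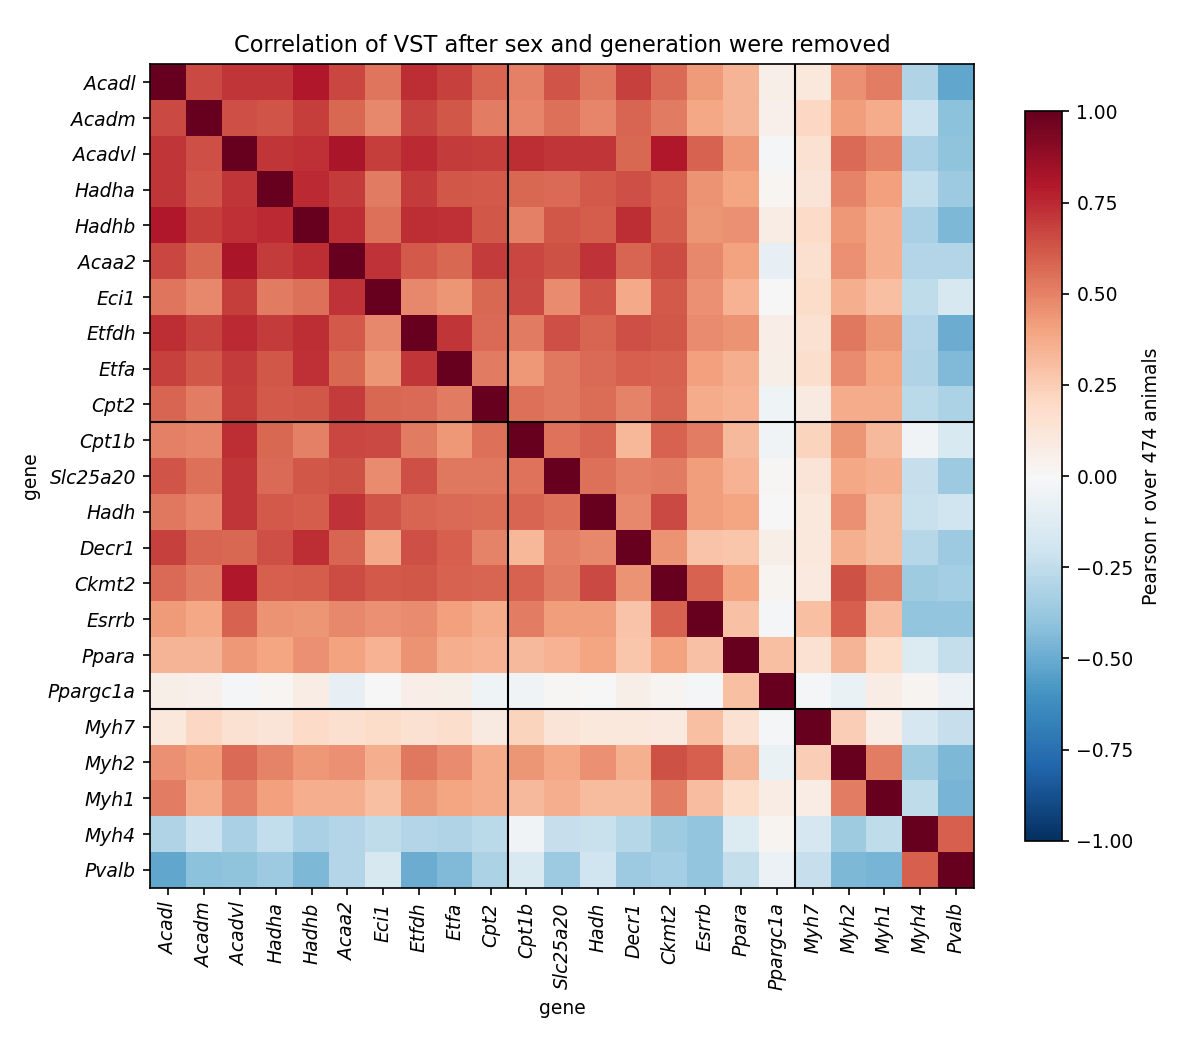
Pearson r over all animals between VST values after sex and generation were removed, for the 10 enzymes (upper left), other metabolic and regulatory genes (middle) and fibre genes (lower right). The 45 pairs of the 10 enzymes are all positive (0.438 to 0.816), Ppargc1a is near 0 against the 10, and Myh4 and Pvalb are negative against the 10.

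**Figure D5:**
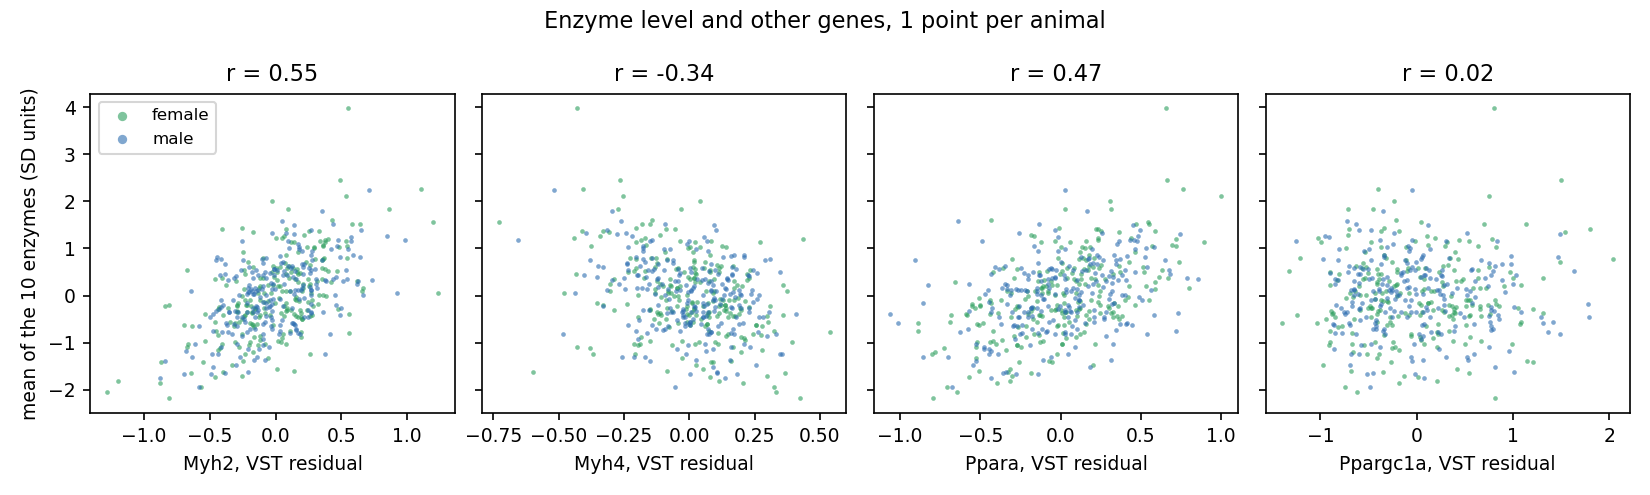
Mean of the 10 enzymes, in SD units, against the VST residual of Myh2, Myh4, Ppara and Ppargc1a, 1 point per animal, after sex and generation were removed. The cloud rises with Myh2 (r = 0.552) and Ppara (0.468), falls with Myh4 (-0.341) and is flat for Ppargc1a (0.023), and the animal at 3.98 is DO147.

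One animal stood apart. DO147, a generation 18 female, had the highest level of 8 of the 10 genes, among them Acadl at 481.7, Hadha at 618.6 and Eci1 at 115 CPM, and a mean of 3.98 SD units where the next highest, DO510, had 2.45. Its total count of 97.1 M ranked 69 from the top. Its Myh4 level of 49355 CPM was among the 8 lowest, while Myh2 ranked 19 and Mb ranked 2 from the top. Its summed brown adipocyte, endothelial and erythroid markers ranked 5, 4 and 73 from the top. Within the brown adipocyte sum, the defining marker Ucp1 was at 0.0196 CPM in DO147, against a mean of 5.50 CPM over all animals. Ppargc1a, which muscle also expresses, was at 123 CPM against a mean of 76.3 CPM. White adipocyte markers of DO147 summed to 1339 CPM, against a median of 1545 CPM over all animals. The lowest mean, -2.18, was that of DO138, at 216 CPM for Acadvl. DO472 followed at -2.04, and its slow-fibre score after sex and generation were removed was -4.90. Without DO147 the median r of the 45 pairs was 0.666.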

How the data were processed

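Polyadenylated RNA of muscle was sequenced by the authors, who aligned reads to a combined transcriptome of the founder strains and derived gene-level expected counts with GBRS/EMASE. The deposited values were these expected counts and a variance-stabilised score per gene and library (VST, DESeq2 per the labels, GRCm38). Both reads of a pair were joined and aligned as if single, so totals count reads and not pairs, and transcripts with few reads had been filtered out. The methods of the study also describe removing batch effects by regression. To which deposited values this was applied, and whether counting used the strand, is not given in the sources used here. The deposited gene start and end positions matched GENCODE M21 for 99.5% of genes. Depth was 35.9 to 165.7 M counts per library. With many reads per gene, precision was set by the spread between animals.

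Expected counts were rounded and tested with edgeR 4.0.16 (filterByExpr with a minimum count of 10, TMM, quasi-likelihood F-test, Benjamini-Hochberg over 18823 genes, threshold 0.05). The 3 tests were of sex with generation, generation with sex, and their interaction, with a further test of library block. DESeq2 1.42.0, limma 3.58.1 on VST, other scalings and filters, covariates and subsets were alternatives. The slow-fibre slope was read from a fit made as such an alternative. CPM used TMM-scaled library sizes. Correlations used VST residuals and have no p-value. Replicates were separate animals, and no replicate number was shared between groups. The procedures were tested on simulated data. Member and other gene lists were chosen with earlier results of these data known. All 10 members are named. Of each other pathway list, counts and the 2 called genes with the largest sex difference are named, with 12 genes listed whatever their result, the 10 genes most like the members and the 5 least like. Esrrb, Esrrg, Nrip1, Rxrg, Rxra, Nrf1, Cpt1a, Mb, Actn3, the adipocyte and erythroid markers and the myosin genes were named after their values were seen.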

Additional observations from a re-analysis of the deposited data

How the results depend on the processing

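Over 12 alternatives on all or nearly all animals (scaling, filters, DESeq2, limma, added covariates, left-out libraries), 120 sex differences of single enzymes were recomputed, of which 110 kept their direction and their side of the threshold, 5 lost and 4 gained a call, and 1 reversed: Etfa with the slow-fibre score as a covariate (0.0051). Of the lost calls 2 were Etfa's, with slow-fibre, white and brown adipocyte scores as covariates (-0.0081, adjusted p = 0.74) and with the 4 myosin genes (-0.00085, adjusted p = 0.97), and the others were those of Acadvl, Acaa2 and Eci1 with total count alone. Hadha gained its call with each of the 3 sets of fibre or cell scores and without DO147. The set of 4 myosin genes and the exclusion of DO147 were chosen after seeing the data. With total count alone 66.7% of the called enzymes were higher in males against 77.8%, and 30.8% against 44.3% of all called genes. Within generations 17, 18, 19, 21 and 23 alone 2, 1, 2, 4 and 3 of the 10 enzymes were called, against 20.6% to 25.3% of all genes, and within blocks 1 to 5 alone 1, 2, 5, 4 and 6, against 19.7% to 28.6%. Reversed values there, none called, were Hadha in generation 19 (-0.031) and, in block 2, Hadha (-0.042), Acaa2 (-0.030) and Eci1 (-0.021). The block call fell from 9 to 5 enzymes with total count alone, and the cause was not tested. The median r of the 45 pairs moved by more than the SD between blocks (0.087) when the 4 myosin genes were removed (0.559) and in block 1 alone (0.538). None of the alternatives gave a call between generations or for the interaction. No paired analysis was possible because the groups share no replicate number. Depth was ample, and the limits are the whole-tissue samples, batches that the labels do not name, and the study's wave covariate, which the labels do not give.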

Other observations

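Fatty acid uptake, activation and storage genes were 8 higher and 5 lower in males of 20 (5 and 7 with total count alone). The largest differences were in acyl-CoA synthetases: Acsl3 was higher by 0.85 ± 0.06 on the log2 scale (adjusted p = 9.2e-38 by edgeR) and Acsl6 by 0.35 ± 0.02 (adjusted p = 8.0e-43), both larger than the difference of any of the 10 enzymes. Of the 8 PPAR-responsive genes, 3 were higher and 2 lower in males, with Vldlr, the very-low-density lipoprotein receptor gene, higher by 0.58 ± 0.04 (adjusted p = 1.2e-43). In the tricarboxylic acid cycle list the largest differences were those of Suclg2 (-0.22 ± 0.02, adjusted p = 8.5e-26) and Idh3g (0.10 ± 0.01, adjusted p = 9.1e-15).

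Taken gene by gene, the closest gene outside the 10 was Decr1, the dienoyl-CoA reductase, for Acadl (r = 0.684), Acadm (0.584), Hadha (0.641) and Hadhb (0.736). It was Ckmt2 for Acadvl (0.803), Hadh for Acaa2 (0.720), Etfb for Eci1 (0.664), Acsl1 for Etfdh (0.647), Acat1 for Etfa (0.644) and Dlst for Cpt2 (0.624). Among genes starting within 1 Mb, the strongest relations of a member with a gene outside the 10 were those of Eci1 with Ndufb10 (0.534), Acadvl with Slc25a11 (0.470) and Cpt2 with Mrpl37 (0.436), all 3 of which encode mitochondrial proteins.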
